A study of Homo sapiens with 6 samples.

Results

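Ferritin and cellular iron handling were followed through 10 genes, taken as the rows of the deposited count table whose Ensembl ID maps to FTH1, FTL, NCOA4, TFRC, SLC11A1, SLC11A2, STEAP3, SLC40A1, IREB2 or ACO1. All 10 were found among 61806 gene IDs, each with 1 ID, and all 10 passed the filter on low counts that left 19611 genes for testing. RNA came from U937, an established human monocytic line given as AML in the labels, treated with ethacrynic acid (3 libraries) or DMSO (3 libraries). Ethacrynic acid, a diuretic, binds thiols. All titles say day 3 while the treatment note says 2 days, and the dose is not given in the labels. Both groups grew in the same serum-containing medium. The labels do not say whether replicates were separate cultures, so each p-value covers the spread among these libraries only, and that spread may be technical.

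Cells take up iron as transferrin bound to the transferrin receptor, reduce it in the endosome, carry it into the cytosol, and either use it, export it through ferroportin or store it inside the ferritin shell. Ferritin is built of heavy chains, which oxidise iron, and light chains, which favour its deposition in the core. Balance is set largely after transcription: iron regulatory proteins bind a hairpin, the iron responsive element, and block translation where it lies ahead of the coding sequence or protect the transcript from decay where it lies behind it. Ferritin genes are also known targets of NRF2, a factor that electrophiles activate. Macrophages recycle iron from red cells and are rich in ferritin and ferroportin.

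The hairpins are shown because their place in the transcript differs among the genes where a match was found. Untranslated regions of the GENCODE 29 transcripts (GRCh38) were searched on the transcript strand for a C followed by a stem of 5 base pairs, G-T pairs allowed, around the loop CAGTGN, and 4 of the 10 genes held 7 such matches in their principal transcripts. In any protein-coding transcript the same pattern was present in the 5′ untranslated region of 31 of 19526 protein-coding genes (0.159%) and in the 3′ untranslated region of 128 (0.656%). Each line below gives 30 bases, 5′ to 3′, with the first 5 letters of the loop in capitals.
FTH1, 5′ untranslated region, chr11:61967573-61967602, minus strand: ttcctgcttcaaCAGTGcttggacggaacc
FTL, 5′ untranslated region, chr19:48965335-48965364, plus strand: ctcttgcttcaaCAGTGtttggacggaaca
SLC40A1, 5′ untranslated region, chr2:189580660-189580689, minus strand: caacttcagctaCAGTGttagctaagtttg
TFRC, 3′ untranslated region, chr3:196050978-196051007, minus strand: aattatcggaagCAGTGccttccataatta
TFRC, 3′ untranslated region, chr3:196050574-196050603, minus strand: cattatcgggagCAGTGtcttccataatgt
TFRC, 3′ untranslated region, chr3:196050509-196050538, minus strand: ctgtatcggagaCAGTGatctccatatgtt
TFRC, 3′ untranslated region, chr3:196050462-196050491, minus strand: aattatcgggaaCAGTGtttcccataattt

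The hairpins of the 2 ferritin chains were identical at 26 of 30 bases. The FTH1 hairpin shared 13 of 30 bases with that of SLC40A1 and between 9 and 11 with those of TFRC. Every match shares the C and the letters CAGTG through the search itself, so part of each count was fixed in advance. The number of bases shared by unrelated stretches was not tested. A match describes letters only, and the counts say nothing of binding or translation. The pattern is strict, so a gene without a match may still hold a hairpin, and a gene with matches may hold more.

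The libraries held between 57516146 and 66677543 counts with ethacrynic acid and between 66907158 and 68128543 counts with DMSO. All 8 monocytic markers were above 1 CPM (counts per 1000000 of a library total scaled by TMM) in at least 1 library, with a summed level of 2761 to 3510 CPM with ethacrynic acid and 2342 to 2671 CPM with DMSO. They did not move together. LYZ (log2 fold change 1.64), ITGB2 (0.37) and SPI1 (0.37) were higher with ethacrynic acid. PTPRC (-0.50), MPO (-0.41), CSF3R (-0.16), CD33 (-0.08) and CD4 (-0.05) were lower, and none of the 8 had an adjusted p under 0.05. Of 8 erythroid genes, HBA1, HBA2, HBB and HBG1 had no count in any library. Only EPOR of that list was above 1 CPM, at 15.1 to 17.3 CPM. Of 5 T and B cell genes, 4 were above 1 CPM in at least 1 library. Their list summed to 9.12 to 16.3 CPM with ethacrynic acid and 10.9 to 13.1 CPM with DMSO. Ethacrynic acid replicate 3 stood apart, at 93.9 on the first principal component against -36.9 to -10.4 for the other 5 libraries. It also held 40.9 CPM of the epithelial gene EPCAM and 37.2 CPM of CDH1, against at most 5.48 and 4.66 CPM in any other library. The summed epithelial and hepatocyte markers were at 5.72 to 78.4 CPM with ethacrynic acid and 6.95 to 8.12 CPM with DMSO, while ALB had no count and KRT5 and APOA1 reached at most 0.178 CPM. The fold change of each of the 10 genes is therefore given with and without that library. In these bulk libraries a change in the share of cells and a change in RNA per cell cannot be told apart.

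Iron storage transcripts rose and no other gene of the 10 passed the test. FTH1 was 3.76-fold and FTL 2.46-fold higher with ethacrynic acid, so 2 of the 10 genes rose and none fell, where 0.265% of all tested genes were called in either direction and 0.229% as higher (edgeR quasi-likelihood test, Benjamini-Hochberg adjusted p under 0.05 over all genes). The transferrin receptor gene TFRC was 1.66-fold higher without passing in this fit, although other fits given below called it. The levels of the export gene SLC40A1 and of the regulators IREB2 and ACO1 were lower on average, also without passing. Of the 10 genes 4 had groups that did not overlap, all with ethacrynic acid higher (FTH1, FTL, TFRC and NCOA4), against 17.6% of all tested genes in either direction and 8.64% with ethacrynic acid higher.

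**Figure D1:**
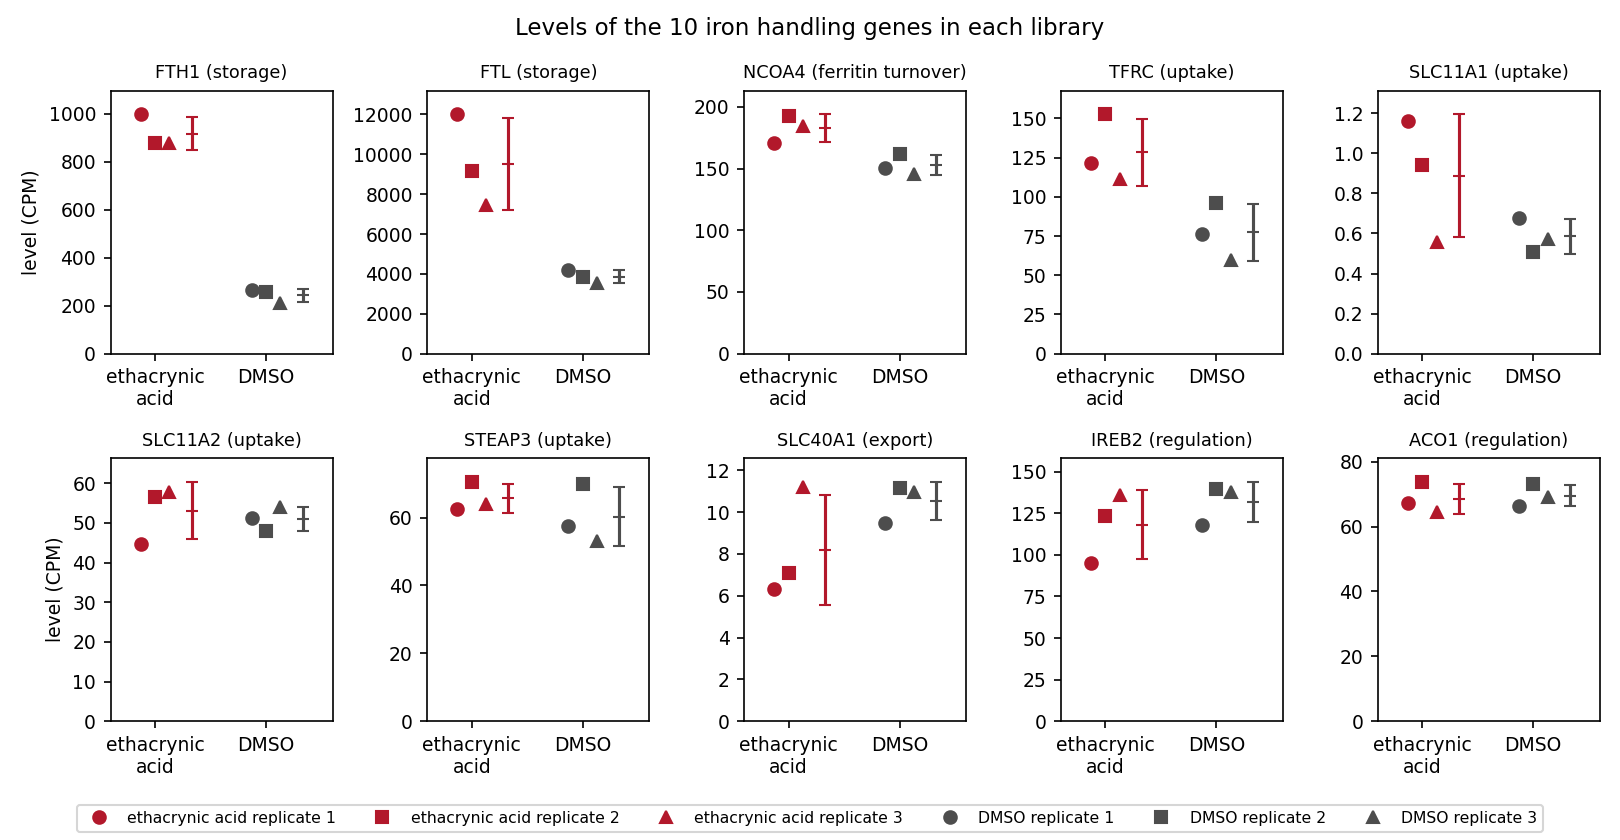
Level of each of the 10 iron handling genes in CPM (y axis, from 0, own scale for each gene) in the 3 ethacrynic acid and 3 DMSO libraries (x axis), with points for libraries and bars for mean ± SD. FTH1 and FTL are above every DMSO library in all 3 ethacrynic acid libraries, as are TFRC and NCOA4 by a smaller margin, while the other 6 genes overlap.

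FTH1 encodes the heavy chain, the subunit with ferroxidase activity (chromosome 11, 61959718 to 61967660, ENSG00000167996). Its level was 998, 879 and 877 CPM with ethacrynic acid, against 264, 255 and 213 CPM with DMSO. The ethacrynic acid libraries lay within a narrow band far above the DMSO libraries. The log2 fold change was 1.91 ± 0.12 (SE; 95% interval of the fold 3.12 to 4.53; edgeR adjusted p = 0.0011), the fourth smallest p of all tested genes. Without ethacrynic acid replicate 3 it was 1.94 ± 0.12 (edgeR adjusted p = 0.00057). FTH1 ranked between 82 and 101 among all genes by count with ethacrynic acid and between 537 and 705 with DMSO.

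FTL encodes the light chain, which lacks the ferroxidase site (chromosome 19, 48965301 to 48966878, ENSG00000087086). Its level was 11996, 9141 and 7435 CPM with ethacrynic acid, against 4200, 3843 and 3562 CPM with DMSO. Replicate 3, which stood apart, was the lowest of its group, and the groups did not overlap. The log2 fold change was 1.30 ± 0.18 (SE; 95% interval of the fold 1.86 to 3.26; edgeR adjusted p = 0.040). Leaving that library out gave 1.44 ± 0.13 (edgeR adjusted p = 0.0028). FTL was the 5th or 6th most counted gene in ethacrynic acid libraries and the 10th in each DMSO library.

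The FTH1 call held in each of the 6 fits that left out 1 library, with log2 fold changes of 1.82 to 1.97 and a highest adjusted p of 0.020. The FTL call did not: it ended without ethacrynic acid replicate 2 (edgeR adjusted p = 0.17) and without DMSO replicate 1, 2 or 3 (0.20, 0.22 and 0.27). Its log2 fold change stayed between 1.11 and 1.44 across the 6. Of all genes those fits called 0.302%, 0.0293% and 0.73% without ethacrynic acid replicate 1, 2 and 3, and 0.0196%, 0.0392% and 0.0345% without DMSO replicate 1, 2 and 3. With no filter on low counts FTL was not called either (edgeR adjusted p = 0.17), where 0.0424% of all genes were.

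**Figure D2:**
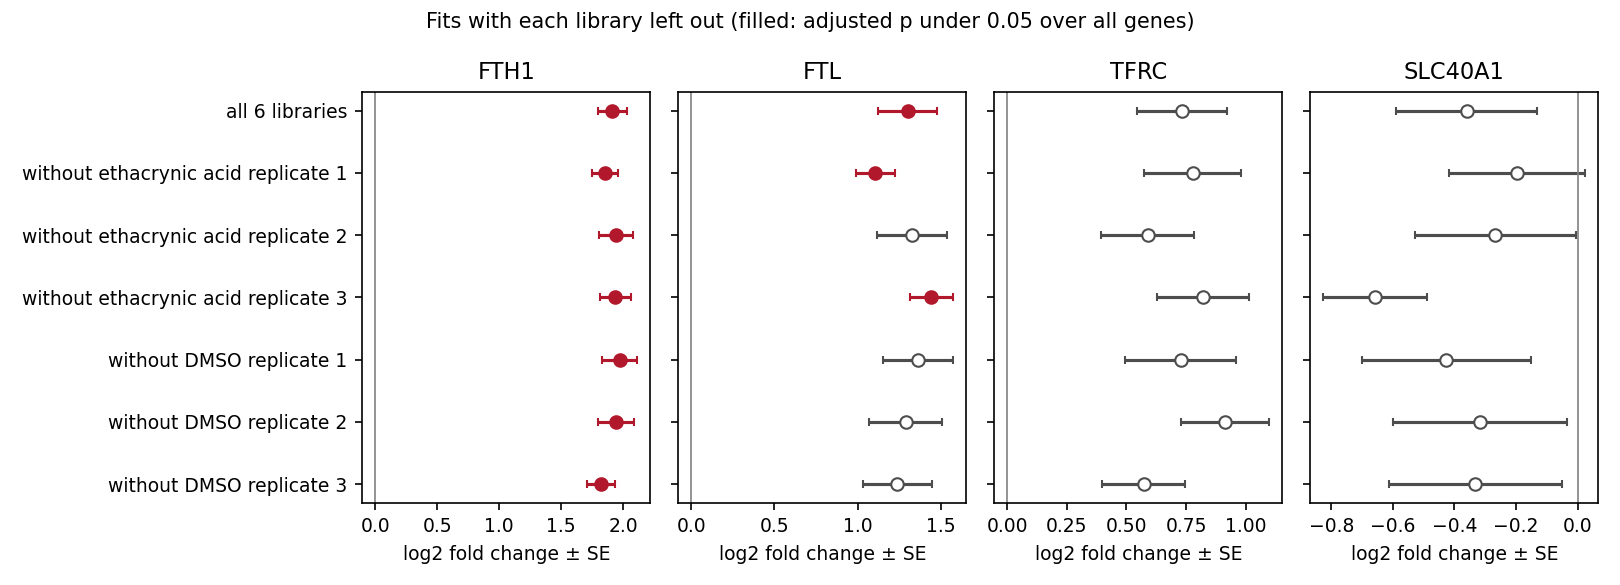
Log2 fold change of FTH1, FTL, TFRC and SLC40A1 (x axis, ethacrynic acid over DMSO, bars SE, own scale for each gene) in the fit of all 6 libraries and in fits without each one (rows), filled where the adjusted p over all genes is under 0.05. FTH1 is filled in every row, FTL in 3 rows, and TFRC and SLC40A1 in none.

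Ferritin transcripts made up 1.19%, 0.979% and 0.853% of all counts in the ethacrynic acid libraries, against 0.454%, 0.415% and 0.398% in the DMSO libraries. The 2 chains did not move in proportion. The ratio of FTL to FTH1 in CPM was 12.0, 10.4 and 8.48 with ethacrynic acid, against 15.9, 15.1 and 16.7 with DMSO, and the groups did not overlap. CPM are not divided by transcript length, so the ratio compares libraries and not the amounts of the 2 transcripts. The log2 ratio of FTH1 to FTL was -3.35 ± 0.25 with ethacrynic acid and -3.99 ± 0.08 with DMSO (SD, n = 3 each), a shift of 0.64 towards the heavy chain, and of 0.51 without ethacrynic acid replicate 3. This ratio was not tested.

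Pseudogenes took little of the counts. FTH1 has 25 named pseudogenes, of which 14 held counts, and they took between 0.515% and 0.709% of the family's counts in any library. FTL has 16, of which 6 held counts, with at most 0.0975% of the family's counts. With pseudogenes summed in, the log2 fold changes were 1.91 and 1.30, as without. Exons of FTH1 overlap those of BEST1 on the other strand over 1267 bases, and BEST1 itself had 3105 counts with ethacrynic acid and 1037 with DMSO, summed over 3 libraries each. The strand setting is not given in the sources used here, so reads in that overlap cannot be told apart.

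NCOA4 encodes the receptor that carries ferritin to the lysosome for breakdown, the step that returns stored iron (chromosome 10, 46005088 to 46030714). It was at 171, 193 and 185 CPM with ethacrynic acid and 151, 162 and 146 CPM with DMSO. The groups did not overlap, but the difference was small next to that of ferritin. NCOA4 had a log2 fold change of 0.26 ± 0.09 (SE; 95% interval of the fold 1.04 to 1.38; edgeR adjusted p = 0.38). With ethacrynic acid replicate 3 left out it was 0.24 ± 0.11 (adjusted p = 0.31, edgeR). NCOA4 has 4 named pseudogenes, so part of its counts could lie elsewhere.

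TFRC encodes the transferrin receptor, the main entry of iron into dividing cells (chromosome 3, 196027183 to 196082189). It was at 121, 153 and 111 CPM with ethacrynic acid and 76.5, 95.9 and 59.4 CPM with DMSO. Every ethacrynic acid library was above every DMSO library, although libraries within each group differed widely. The log2 fold change was 0.73 ± 0.19 (SE; 95% interval of the fold 1.23 to 2.25), not called (edgeR adjusted p = 0.23). Leaving out ethacrynic acid replicate 3 gave 0.82 ± 0.19 (edgeR adjusted p = 0.12). DESeq2 called it (adjusted p = 0.0085). DESeq2 called 3 of the 10 genes, FTH1, FTL and TFRC, where it called 3.63% of all genes with an adjusted p. The edgeR fit of all 6 libraries with group as the only term called FTH1 and FTL but not TFRC. No fit with 1 library left out called TFRC. With the replicate number added as a block, edgeR called TFRC (0.75 ± 0.07 SE, adjusted p = 0.013). That fit called 355 of 19611 tested genes.

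The other 3 uptake genes gave no call. STEAP3, the endosomal reductase that prepares iron for transport, lay between 62.6 and 70.5 CPM with ethacrynic acid and between 53.2 and 69.9 CPM with DMSO (log2 fold change 0.13 ± 0.12 SE, and 0.14 ± 0.14 without ethacrynic acid replicate 3; 95% interval of the fold 0.901 to 1.32). SLC11A2, or DMT1, which moves the reduced iron into the cytosol, lay between 44.8 and 57.9 CPM with ethacrynic acid and between 47.9 and 54.1 CPM with DMSO (0.06 ± 0.12 SE, and -0.015 ± 0.13 without that library; 0.858 to 1.26). Both intervals end below the 2.46-fold of FTL. SLC11A1, or NRAMP1, the metal transporter of the macrophage phagosome, was close to the lower limit of what was tested, with 71, 53 and 36 counts with ethacrynic acid and 46, 35 and 41 counts with DMSO. That corresponds to 1.16, 0.943 and 0.559 CPM with ethacrynic acid and 0.677, 0.507 and 0.571 CPM with DMSO. Replicates 1 and 2 were above every DMSO library and replicate 3 among them. For SLC11A1 this gave a log2 fold change of 0.60 ± 0.38 (SE; edgeR adjusted p = 0.59). It was 0.84 ± 0.34 with ethacrynic acid replicate 3 left out (edgeR adjusted p = 0.29).

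SLC40A1 encodes ferroportin, the known exporter of iron from vertebrate cells (chromosome 2, 189560579 to 189583758). It was at 6.32, 7.08 and 11.20 CPM with ethacrynic acid and 9.49, 11.17 and 10.95 CPM with DMSO. Replicates 1 and 2 of the ethacrynic acid group were below every DMSO library, whereas replicate 3, the library with epithelial transcripts, was just above the highest of them. The part of those transcripts in this value was not tested. The log2 fold change was -0.36 ± 0.23 (SE; 95% interval of the fold 0.540 to 1.12; edgeR adjusted p = 0.59). Without ethacrynic acid replicate 3 it was -0.66 ± 0.17 (edgeR adjusted p = 0.15), still not called, and without ethacrynic acid replicate 1 it was -0.20 ± 0.22 (edgeR adjusted p = 0.81). With ethacrynic acid replicate 3 left out, the groups of 6 of the 10 genes did not overlap, against 35% of all tested genes. SLC40A1 and SLC11A1 were the genes added. With 386 to 786 counts in a library, SLC40A1 was a minor transcript beside ferritin.

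IREB2 and ACO1 encode the iron regulatory proteins IRP2 and IRP1, which read the hairpins shown above; IRP2 is degraded when iron is plentiful, and IRP1 then holds an iron-sulfur cluster and acts as cytosolic aconitase. IREB2 was at 95.3, 123 and 136 CPM with ethacrynic acid and 118, 140 and 138 CPM with DMSO. Its groups overlapped, and ethacrynic acid replicate 1 was the lowest library. IREB2 had a log2 fold change of -0.16 ± 0.14 (SE; 95% interval of the fold 0.714 to 1.13; edgeR adjusted p = 0.71). It was -0.27 ± 0.14 without ethacrynic acid replicate 3 (adjusted p = 0.38, edgeR) and -0.015 ± 0.10 without ethacrynic acid replicate 1 (adjusted p = 0.98, edgeR). ACO1 lay between 64.6 and 73.8 CPM with ethacrynic acid and between 66.4 and 73.1 CPM with DMSO, the smallest difference of the 10 genes (log2 fold change -0.02 ± 0.09 SE, and 0.014 ± 0.11 without ethacrynic acid replicate 3; 95% interval of the fold 0.852 to 1.14). These are transcript levels, and both proteins are known to be controlled after translation.

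**Figure D3:**
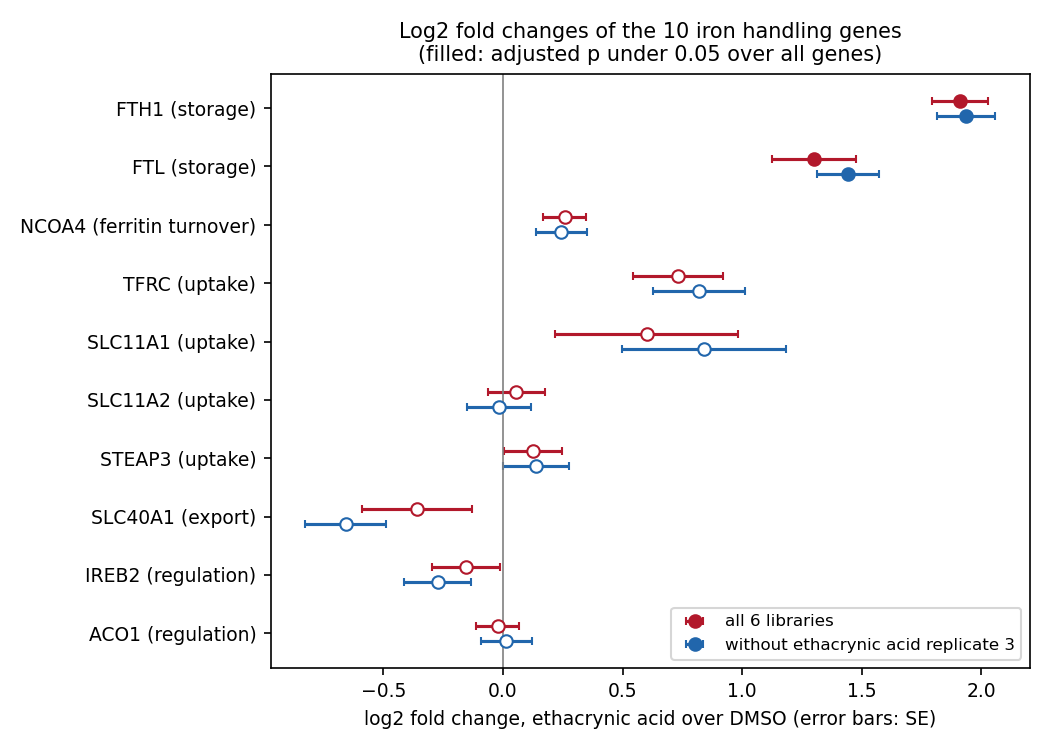
Log2 fold change with SE (x axis, ethacrynic acid over DMSO) of the 10 genes in order of role (rows), from all 6 libraries and without ethacrynic acid replicate 3, filled where the adjusted p over all genes is under 0.05. The storage genes FTH1 (1.91) and FTL (1.30) are filled in both fits, TFRC (0.73) and SLC11A1 (0.60) follow unfilled, and SLC40A1 moves further below 0 without replicate 3.

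Storage and uptake were set against each other as the summed CPM of FTH1 and FTL over that of TFRC. The ratio was 107, 65.7 and 74.7 in the ethacrynic acid libraries, against 58.3, 42.7 and 63.5 in the DMSO libraries. The groups did not overlap, but ethacrynic acid replicate 2, which had the highest TFRC level, was only slightly above DMSO replicate 3. On the log2 scale the ratio averaged 6.33 ± 0.36 with ethacrynic acid and 5.76 ± 0.30 with DMSO (SD, n = 3 each), a difference of 0.58, and of 0.63 without ethacrynic acid replicate 3. For FTH1 alone over TFRC the ratio was 8.22, 5.77 and 7.88 with ethacrynic acid, against 3.45, 2.66 and 3.59 with DMSO, a wider separation. Neither ratio was tested. Both use CPM not divided by transcript length, so they compare libraries and not amounts of transcript.

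**Figure D4:**
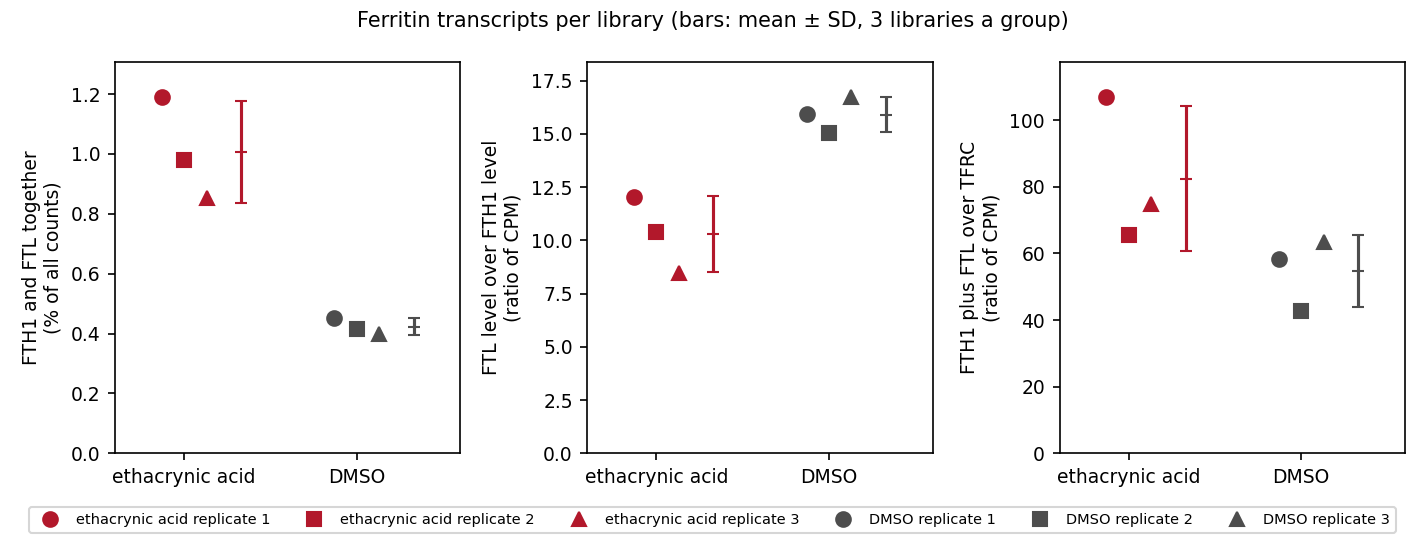
Share of all counts taken by FTH1 and FTL together (left, %), ratio of FTL to FTH1 (middle, CPM over CPM) and ratio of FTH1 plus FTL to TFRC (right, CPM over CPM), each y axis from 0, in the ethacrynic acid and DMSO libraries (x axis), with bars for mean ± SD. With ethacrynic acid the ferritin share lies between 0.853% and 1.19%, the FTL to FTH1 ratio is lower and the ferritin to TFRC ratio is higher, with no overlap between groups in any panel.

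Levels can be compared between genes only per transcript length, here CPM per kilobase of the principal transcript. With ethacrynic acid FTL led at 10847 ± 2625 CPM per kilobase, followed by FTH1 at 747 ± 56.4 and NCOA4 at 79.2 ± 4.85 (SD, n = 3). TFRC came next at 25.1 ± 4.21, then IREB2 at 18.6 ± 3.29, STEAP3 at 16.8 ± 1.08, SLC11A2 at 12.8 ± 1.74 and ACO1 at 9.18 ± 0.634. SLC40A1 at 2.38 ± 0.763 and SLC11A1 at 0.231 ± 0.0793 were lowest. With DMSO the order of the first 3 was unchanged, at 4406 ± 364, 199 ± 22.0 and 66.2 ± 3.51 CPM per kilobase. There IREB2 at 20.7 ± 1.90 preceded STEAP3 at 15.4 ± 2.22 and TFRC at 15.1 ± 3.57. TFRC was thus level with STEAP3 within the spread in DMSO libraries. With ethacrynic acid every TFRC library was above every library of IREB2 and STEAP3, its lowest at 21.8 and the highest of IREB2 at 21.4 CPM per kilobase. That narrow gap rests on the annotated length of each principal transcript, and which transcripts were present was not tested. IREB2 and STEAP3 overlapped with ethacrynic acid, and with DMSO TFRC overlapped IREB2, STEAP3 and SLC11A2.

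No gene of the wider iron network passed the test. Of 64 further genes in 7 lists, 56 were tested and none was called by edgeR or, where it gave an adjusted p, by DESeq2, while 4 (7.14%) had an unadjusted p under 0.05 in edgeR, against 11.1% of all tested genes. DESeq2 gave an adjusted p for 52 of the 56, CD163 and HFE being among the 4 without one. The median log2 fold change was 0.05 over these 56, 0.19 over the 10 genes above and 0.00 over all tested genes, and 34 of the 56 were positive. These are descriptions of lists and not tests of them.

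Among storage partners and iron chaperones 4 of 5 were tested, with log2 fold changes of -0.18 to 0.16. PCBP1, which delivers iron to ferritin, was at 414 ± 18.8 CPM with ethacrynic acid and 372 ± 19.9 CPM with DMSO (SD, n = 3 each; log2 fold change 0.16 ± 0.09 SE). The related PCBP2 (-0.06) and HERC2, which takes part in the turnover of NCOA4 (-0.18), were also not called. The mitochondrial ferritin gene FTMT had no count in any library. PCBP1 has exons opposite PCBP1-AS1, and exons of PCBP2 overlap other annotated genes, so their values are uncertain.

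In the wider uptake list, 11 of 13 were tested, with a median of 0.02. SLC39A8, a zinc and iron importer, was at 85.8 ± 4.80 CPM with ethacrynic acid and 96.6 ± 5.89 CPM with DMSO (SD, n = 3 each; log2 fold change -0.17 ± 0.09 SE, not called). CD163, the macrophage receptor for haemoglobin bound to haptoglobin, had 10, 22 and 11 counts with ethacrynic acid and 0, 4 and 0 counts with DMSO, too few for a firm value (edgeR adjusted p = 0.36). LRP1, a receptor that takes up haemopexin with its heme, was not called and was at 2.05, 1.87 and 7.26 CPM with ethacrynic acid and 1.96, 1.33 and 1.41 CPM with DMSO. Its log2 fold change of 1.25 was 0.32 without ethacrynic acid replicate 3.

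Of the export and systemic control genes 4 of 8 had enough counts to be tested. Their median of 0.91 came from the ferroxidase gene CP (2.22) and the hepcidin regulator HFE (1.85), each of which had its highest level in ethacrynic acid replicate 3, at 3.23 and 1.62 CPM. Without that library the values of CP and HFE were 0.41 and -0.39. TMPRSS6, a protease that restrains hepcidin, was at most 1.27 CPM in any library, and its value of -0.42 was -0.047 without ethacrynic acid replicate 3 and 0.084 without DMSO replicate 1. None of these was called.

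Of the regulation list all 6 were tested, with a median of 0.00. SKP1 and RBX1, subunits of the ligase complex that degrades IRP2, were at 140 ± 16.0 and 35.7 ± 8.61 CPM with ethacrynic acid, against 114 ± 5.97 and 28.2 ± 0.988 CPM with DMSO (SD, n = 3 each). Neither was called (log2 fold change 0.30 ± 0.11 and 0.34 ± 0.17 SE). Their groups did not overlap, which held for 11 of the 56 wider genes tested and for 17.6% of all tested genes. RBX1 was at 45.6 CPM in ethacrynic acid replicate 1, and its value was 0.13 ± 0.09 without that library. EPAS1, which encodes HIF-2 alpha, had a log2 fold change of -0.10 and was not called.

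Genes of mitochondrial iron and iron-sulfur assembly (19 of 19 tested, median 0.11) lay between -0.15 and 0.33. Within them BOLA3 (0.33), CISD2 (0.25) and GLRX5 (0.23) had the smallest p and were not called. The cytosolic assembly genes (9 of 9 tested, median 0.11) lay between -0.07 and 0.19, with CIAO1 at 0.16, CIAPIN1 at 0.19 and CIAO2B at 0.11. Of 4 further transcripts known for an iron responsive element, 3 were tested. CDC14A (-0.24) was not called. CDC42BPA (2.71) was not called either; it was at 5.28 CPM in ethacrynic acid replicate 3 and at most 0.552 CPM elsewhere, and its value was 0.44 without that library.

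**Figure D5:**
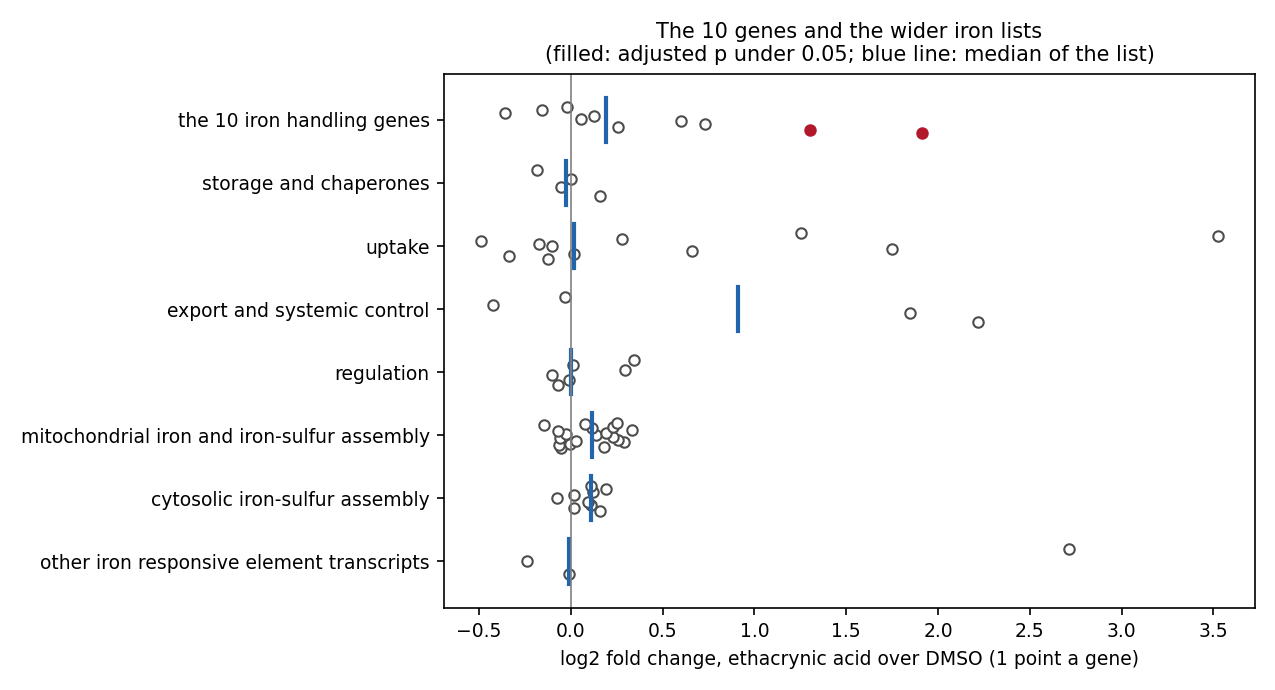
Log2 fold change (x axis, ethacrynic acid over DMSO) of each tested gene, 1 point a gene, for the 10 iron handling genes and the 7 wider lists (rows), with a blue line at each median and filled points where the adjusted p is under 0.05. FTH1 and FTL are the filled points, and the medians of the lists lie near 0 except for export and systemic control (0.91 over 4 genes).

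The genes most like FTH1 across the 6 libraries, by Pearson's r of log2 CPM, were LZTR1, RAB1A, HMGB2, ENSG00000228509 and COL4A2 (r from 0.996 to 0.997). Those most like FTL were ZNF530, PPDPF, TALDO1, SRRD and CYB561A3 (r from 0.996 to 0.998). Those most like TFRC were ITM2B, VPS9D1-AS1, FANCA, PCBP1 and IL17RA (r from 0.992 to 0.996). The 3 sets had no gene in common, while FTH1 and FTL correlated with each other at r = 0.97. TFRC correlated with FTH1 at 0.87 and with FTL at 0.84. Of the 15, COL4A2 and PPDPF were called as higher, with log2 fold changes of 0.81 ± 0.08 and 1.27 ± 0.18 (SE; edgeR adjusted p = 0.013 and 0.043). Of all tested genes 0.229% were called as higher. The 15 were picked by their values in the same 6 libraries, which favours such calls in advance, so the calls are no separate support. With 6 libraries in 2 groups such r values describe likeness across these libraries only.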

How the data were processed

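The authors deposited whole-number counts per Ensembl gene, not scaled between libraries. GRCh38, HISAT2, fastp, edgeR and StringTie 1.3.4d appear in the submitters' processing notes, without roles. No source used here states the annotation, the strand setting or the counting method. Every library had more genes with a count of 4 (1213 to 1332) than of 3 (651 to 762) or 5 (393 to 466), so 1 count may not be 1 read.

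Symbols were matched for 61757 of 61806 IDs. A filterByExpr filter (counts of 10, totals of 15) came first, and libraries were scaled by TMM and tested with edgeR 4.0.16 (quasi-likelihood, R 4.3.3), group as the only term, called at an adjusted p under 0.05. SE is the fold change over the square root of F, and 95% intervals use its degrees of freedom and are not adjusted. CPM were computed with TMM-scaled library sizes. Coordinates and transcripts are GENCODE 29. Alternatives included DESeq2 1.42.0 and limma-voom (limma 3.58.1). Wider lists were named by every called gene plus up to 3 others of smallest p; 1 gene so named is not reported here. Members and lists were chosen with earlier results of these data known. Likeness is a ranking of r over all tested genes, with ferritin pseudogenes left out. Groups of 3 libraries limit every test.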

Additional observations from a re-analysis of the deposited data

How the results depend on the processing

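FTH1 was called as higher in all 16 alternatives (log2 fold change 1.82 to 1.97) and FTL in 11 of them (1.11 to 1.44). The number of the 10 genes called was 2, and 1 without a filter on low counts, where FTL gave 1.29 (edgeR adjusted p = 0.17). It was 1 to 2 when each library was left out. The number of all genes called was 52. It was 14 without a filter, 96 with a stricter one (5 CPM in 3 libraries), 598 with DESeq2 and 4 to 148 when each library was left out. No wider iron gene was called in any of the 16, though not every gene was tested in each and 4 had no adjusted p in DESeq2. Among the named genes, the stricter filter left CD163, LRP1, CP, HFE, TMPRSS6 and CDC42BPA untested. Dividing all counts by 4 left CD163, CP, HFE and CDC42BPA untested. TFRC was also called with DESeq2.

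No label ties libraries of the same replicate number, so the numbers were not used as a pairing in the fit reported above. Deviations from the group means of same-numbered libraries correlated at 0.16, 0.06 and 0.09. Those of other pairs correlated at -0.12 to 0.026. Whether same-numbered libraries share a source was not tested. Each library did correlate best with its own number. With the replicate block, 355 of 19611 tested genes were called, against 52 without it. FTH1, FTL and TFRC were the 3 of the 10 genes called (log2 fold change 0.75, edgeR adjusted p = 0.013 for TFRC).

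The sign changed under some alternatives for SLC11A2, ACO1 and CIAO2B, whose values were near 0, and for TMPRSS6 (-0.42) and HFE (1.85), which were not near 0. SLC11A2 was at -0.017 under total count scaling, which moved the median of all genes by -0.08. Over the left-out libraries SLC11A2 ran from -0.015 to 0.17 (below 0 without ethacrynic acid replicate 3) and ACO1 from -0.080 to 0.014 (above 0 without ethacrynic acid replicate 3 or DMSO replicate 2). CIAO2B ran from -0.0067 to 0.17 (below 0 without ethacrynic acid replicate 1), TMPRSS6 from -0.85 to 0.084 (above 0 without DMSO replicate 1) and HFE from -0.39 to 3.01 (below 0 without ethacrynic acid replicate 3). The cause of these changes was not tested. The log2 shift of FTH1 against FTL was 0.51 to 0.76 and that of ferritin against TFRC 0.37 to 0.73 over the left-out libraries, the lowest of the second without ethacrynic acid replicate 1. SLC11A1 was removed by the stricter filter. Low counts limit SLC11A1 and CD163.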
